A study of Homo sapiens with 36 samples.

Results

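UGP2, UGDH, SLC35D1, UXS1, UGT8 and GUSB, 6 of the 37549 genes with a symbol in the deposited counts, were followed in drug-treated B-cell lines and set beside the glucuronosyltransferase UGT2B17 in the same libraries. They were taken by name, and all but UGT8 have a place in the path that makes, moves, uses and releases glucuronic acid. UGT8 is a relative of the UGT enzymes in sequence that uses another sugar. All 6 passed the filter on low counts in each line. The cells were MEC1, JVM2 and EHEB, established lines of leukaemic or related B cells used as models of chronic lymphocytic leukaemia. MEC1 carries mutated p53 and the other two carry the wild-type gene. Each line received the vehicle dimethyl sulphoxide (DMSO), 50 µM of the purine analogue fludarabine, 5 µM of the Bruton tyrosine kinase inhibitor ibrutinib or idelalisib, an inhibitor of phosphoinositide 3-kinase, at 10 µM, with exposure times of 48 h (MEC1), 72 h (JVM2) and 96 h (EHEB). Each of the 12 groups held 3 libraries of ribosomal RNA-depleted total RNA, 36 in all. Each model is 1 line, and differences between lines cannot be told apart from those of exposure time. Nothing in the labels says that the libraries of a group came from separate cultures, so p values measure the spread between these libraries, which may be technical.

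Glucuronidation joins glucuronic acid, taken from the activated sugar UDP-glucuronic acid, to lipophilic molecules so that they can leave the cell. UGP2 makes UDP-glucose, UGDH oxidises it to UDP-glucuronic acid, and SLC35D1 carries UDP-glucuronic acid into the endoplasmic reticulum, where UGT enzymes such as UGT2B17 use it. UXS1 draws on the same pool to make UDP-xylose for proteoglycans, GUSB, the lysosomal β-glucuronidase, cuts glucuronic acid off again, and UGT8, a relative of the UGT enzymes in sequence, transfers galactose to ceramide and uses UDP-galactose instead.

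The median library held 42114145 estimated counts, the smallest 26590705 and the largest 53538925. The B-cell markers MS4A1, CD79A, CD79B, PAX5 and CD22 had at least 10 counts in every library. Of the markers of other cell types, APOB had 0 counts in every library, CSF1R and ITGAM (myeloid) and KLRD1 (NK cell) had at least 10 in each, and SERPINA1 (hepatocyte) had at least 10 in each library of JVM2 and EHEB. Summed over 6 markers each, hepatocyte genes reached at most 47.8 CPM, myeloid genes 63.7 and T and NK cell genes 26.3. Libraries are named by line and library number. The fludarabine and DMSO libraries share 1 series of numbers per line, MEC1_37 to MEC1_48, JVM2_85 to JVM2_96 and EHEB_133 to EHEB_144, whereas the ibrutinib and idelalisib libraries lie in another, MEC1_184 to MEC1_192, JVM2_232 to JVM2_240 and EHEB_280 to EHEB_288. Since all DMSO libraries belong to the first series, what the kinase inhibitors did and how the number series differ cannot be told apart. A level is a count relative to its library's total, corrected by TMM factors computed over all libraries (CPM), and differences are given as log2 fold changes from the fit of a line, with the standard error (SE). A gene was called when its Benjamini-Hochberg adjusted p in the edgeR quasi-likelihood test was under 0.05.

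Against DMSO, fludarabine led to calls for 2 of the 6 genes in MEC1, where 43.9% of all genes tested were called, for 4 in JVM2 (47.2% of all genes) and for 4 in EHEB (37.5%). Ibrutinib led to 2 calls in each line, against 47.6% (MEC1), 29.4% (JVM2) and 19.7% (EHEB) of all genes. For idelalisib the counts were 2 in MEC1 (55.0% of all genes), 4 in JVM2 (44.2%) and 2 in EHEB (33.3%). The members' shares lay on both sides of those of all genes, and the set did not move as a block: in each comparison with fludarabine, and in JVM2 with each drug, some members rose and others fell. With library size scaling alone, the called falls with fludarabine in JVM2 (UGP2 and GUSB) were lost, and that in MEC1 (UGP2) turned direction. Of the 24 calls among 54 tests, 17 held whichever library was left out and 14 also held under every other way of processing that was run. Those 14 were 5 of SLC35D1, 4 of GUSB, 3 of UXS1 and 2 of UGP2. In bulk RNA, fewer cells that express a gene and less of its RNA per cell cannot be told apart. Scaling by library size alone moved the median change of all genes with fludarabine by 0.25 (MEC1), 0.20 (JVM2) and 0.11 (EHEB), and the higher share of all calls from 48.4% to 74.1%, 50.6% to 69.1% and 48.9% to 61.8%.

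The vehicle-treated lines differed first in UGT8. Its counts were 1019 to 1252 in the DMSO libraries of MEC1, 19 to 46 in those of JVM2 and 14 to 22 in those of EHEB. In CPM this was 26.5 ± 1.41, 0.891 ± 0.29 and 0.458 ± 0.106 (SD, n = 3 each). The level in JVM2 was thus 29.3-fold lower than in MEC1 (log2 difference −4.87, SE 0.231, adjusted p = 1.63e-07) and that in EHEB 56.4-fold lower (−5.82, SE 0.247, adjusted p = 7.45e-08). UXS1, the UDP-xylose synthase, ran the other way. Its DMSO libraries held 12.4, 11.6 and 12.1 CPM in MEC1, 24.8, 29.2 and 33.1 in JVM2 and 16.7, 19.6 and 17.6 in EHEB, with no overlap between lines. It was higher in JVM2 than in MEC1 by 1.28 (SE 0.11, adjusted p = 8.38e-06) and in EHEB by 0.60 (SE 0.109, adjusted p = 0.00102). GUSB was highest in MEC1, at 81.8, 77.3 and 63.5 CPM, against 38.4, 40.1 and 40.6 in JVM2 and 42.1, 44.2 and 34.0 in EHEB. The difference was −0.90 (SE 0.114, adjusted p = 0.000114) for JVM2 and −0.87 (SE 0.114, adjusted p = 0.000132) for EHEB.

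The path to UDP-glucuronic acid differed less between the lines. UGDH was lower in JVM2 than in MEC1 by a log2 difference of −0.66 (SE 0.108, adjusted p = 0.000576) and higher in EHEB than in JVM2 by 0.42 (SE 0.107, adjusted p = 0.00874), while EHEB against MEC1 gave −0.24 (95% interval −0.48 to 0.002, adjusted p = 0.0734). For UGP2 the 3 differences between lines lay between −0.13 and 0.12. That for EHEB against MEC1 was −0.01 (95% interval −0.11 to 0.10), and the 2 that were called were lost with 5 of 6 libraries left out, with the lowest adjusted p among these at 0.062 for JVM2 against MEC1 and 0.0771 for EHEB against JVM2. SLC35D1 was higher in JVM2 than in MEC1 by 0.28 (adjusted p = 0.0095) and in EHEB by 0.22 (adjusted p = 0.0244), neither of which held with library size scaling alone (0.13, adjusted p = 0.192, and 0.10, adjusted p = 0.322). The EHEB difference was also lost without EHEB_133 (adjusted p = 0.0756), EHEB_134 (0.0583) or MEC1_39 (0.0807). In all, 6 of the 6 genes were called for JVM2 against MEC1, where 63.8% of all genes were, 4 for EHEB against MEC1 (67.4%) and 4 for EHEB against JVM2 (59.6%). Per length, as CPM per kilobase of exon, UGDH held 20.5 ± 0.931 and GUSB 19.1 ± 2.45 in DMSO-treated MEC1, UGDH 17.1 ± 2.11 and UGP2 15.9 ± 0.315 in EHEB, and UGP2 14.8 ± 0.345 and UGDH 13 ± 1.27 in JVM2 (SD, n = 3 each). These were the highest pairs of the 6, GUSB without its pseudogenes, and the order within a pair was within the spread in MEC1 and EHEB. UXS1 was lowest in MEC1, at 1.72 ± 0.0555, and UGT8 in JVM2 and EHEB, at 0.203 ± 0.0662 and 0.105 ± 0.0241. On this scale UGT2B17 stood at 6.39 ± 0.0429 in MEC1 and 5.54 ± 0.364 in JVM2, below UGDH, UGP2, GUSB and SLC35D1. In EHEB it stood at 24.7 ± 1.53, above all 6. The length is that of all annotated exons of a gene together (6791 bases for UGP2, 2572 for UGT2B17), so the order between genes depends on the annotation. Without division by length, UGP2 in DMSO-treated EHEB was above UGT2B17, at 107.8 against 63.4 CPM.

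UGP2, the UTP-glucose-1-phosphate uridylyltransferase at the head of the path (chromosome 2, 63840952 to 63891562, plus strand, GRCh38), fell with fludarabine in every line. Its CPM went from 108.3, 109.5 and 112.8 in DMSO to 95, 93.6 and 97.7 in MEC1, from 99.0, 98.8 and 102.9 to 89.2, 83.9 and 78.6 in JVM2, and from 107.3, 110.2 and 106.0 to 80.7, 83.8 and 80.2 in EHEB. All fludarabine libraries lay below all DMSO libraries of their line. The log2 fold changes were −0.23 (SE 0.0799, adjusted p = 0.0395), −0.28 (SE 0.0485, adjusted p = 0.000613) and −0.37 (SE 0.0645, adjusted p = 0.000911). The MEC1 call was lost with any 1 of the libraries left out (adjusted p 0.0746, 0.0509 and 0.107 without MEC1_37, MEC1_38 and MEC1_39, and 0.0869, 0.0999 and 0.0579 without MEC1_46, MEC1_47 and MEC1_48), and with library size scaling alone the change was 0.02 in MEC1 and −0.09 (adjusted p = 0.105) in JVM2. The stricter filter (adjusted p = 0.184) and counts divided by 8/3 (0.0561) also ended the MEC1 call.

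With the kinase inhibitors, UGP2 moved in opposite directions in JVM2 and EHEB. With idelalisib it fell in EHEB to 75.9, 84.8 and 73.3 CPM, a change of −0.45 (SE 0.0645, adjusted p = 0.0003), and rose in JVM2 to 104.8, 110.2 and 115.4 CPM, by 0.13 (SE 0.0484, adjusted p = 0.0491). With ibrutinib the changes were −0.21 in EHEB (SE 0.0644, adjusted p = 0.0429), 0.16 in JVM2 (SE 0.0484, adjusted p = 0.0259) and −0.09 in MEC1 (adjusted p = 0.369). The JVM2 rise with idelalisib was lost without JVM2_85, JVM2_86, JVM2_87, JVM2_239 or JVM2_240 (adjusted p 0.112, 0.14, 0.0999, 0.073 and 0.113) and that with ibrutinib without JVM2_85, JVM2_86, JVM2_87 or JVM2_232 (0.0642, 0.0839, 0.0608 and 0.0963). The EHEB fall with ibrutinib was lost without EHEB_133, EHEB_134, EHEB_135, EHEB_280 or EHEB_281 (0.103, 0.14, 0.088, 0.155 and 0.148). Each of these 3 calls was also lost without the filter on low counts (adjusted p 0.142, 0.0839 and 0.0841). In MEC1, idelalisib gave −0.19 (95% interval −0.36 to −0.01, adjusted p = 0.0679), which passed the threshold without MEC1_190 (adjusted p = 0.00361), with library size scaling alone (−0.28, adjusted p = 0.0109) and in the joint fit (−0.25, adjusted p = 0.00303). The test of a difference between the lines passed for ibrutinib (adjusted p = 0.00564) and idelalisib (adjusted p = 0.000311), with each library left out in turn, and under every alternative. For fludarabine it was at adjusted p = 0.0468, above the threshold with 16 of 18 libraries left out and highest without MEC1_48 (0.425).

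UGDH, the UDP-glucose dehydrogenase that makes UDP-glucuronic acid (chromosome 4, 39498755 to 39528311, minus strand), varied widely between replicate libraries, with a coefficient of variation of up to 25.3%. In MEC1 its CPM was 83.2, 78.6 and 86.1 with DMSO, 80.7, 47.8 and 67.7 with fludarabine, 85.7, 76.3 and 86.9 with ibrutinib and 73.7, 76.4 and 49.2 with idelalisib. A single library, MEC1_47 or MEC1_192, lay far below the others of its group. None of these differences was called (−0.36, 0.02 and −0.25, adjusted p 0.144, 0.934 and 0.274), but without MEC1_46, the highest fludarabine library, the first was (adjusted p = 0.0446). In JVM2 the DMSO libraries held 51.3, 57.7 and 47.6 CPM, and the treated ones lay between 36.5 and 55.5. There the 95% intervals of the log2 fold change were −0.49 to 0.15 for fludarabine, −0.42 to 0.22 for ibrutinib and −0.44 to 0.21 for idelalisib. EHEB held 74.7, 72.7 and 59.1 CPM with DMSO, 44.7, 52.4 and 54.4 with fludarabine and 53.6, 47.7 and 56.4 with ibrutinib, without overlap between either drug and DMSO. UGDH fell with fludarabine in EHEB by 0.41 on the log2 scale (SE 0.119, adjusted p = 0.0175). That call was lost without EHEB_133, EHEB_134 or EHEB_142 (adjusted p 0.0656, 0.0589 and 0.0687) and with library size scaling alone (0.0585). For ibrutinib in EHEB the value was −0.36 (SE 0.119, adjusted p = 0.0562), which passed the threshold without EHEB_135 (0.0302) and in DESeq2 (0.0238). Idelalisib in EHEB gave −0.19 (95% interval −0.46 to 0.07). No drug effect on UGDH differed detectably between lines (adjusted p 0.652, 0.113 and 0.754), although that of ibrutinib did without EHEB_135 (0.0289). The antisense gene UGDH-AS1 shares 513 exon bases with UGDH on the other strand, and since the strand setting of the counting is not given, reads of the pair could not be told apart there. UGDH-AS1 reached at most 359 counts, and UGDH had at least 1263 in every library.

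SLC35D1, which carries UDP-glucuronic acid and UDP-N-acetylgalactosamine across the membrane of the endoplasmic reticulum (chromosome 1, 66999350 to 67054148, minus strand), showed the largest rise called for any member against DMSO. In JVM2 its CPM was 61.5, 61.0 and 57.1 with DMSO and 102.0, 99.9 and 99.1 with fludarabine. EHEB went from 59.7, 57.6 and 53.6 to 84.7, 86.8 and 87.3 CPM, whereas MEC1 held 49.5, 54.3 and 45.1 CPM with DMSO and 47.4, 49.0 and 46.8 with fludarabine. The groups were thus far apart in JVM2 and EHEB and overlapped in MEC1, the line with mutated p53 and the shortest exposure. The log2 fold change was 0.72 in JVM2 (1.64-fold, SE 0.0558, adjusted p = 1.58e-06), 0.63 in EHEB (1.55-fold, SE 0.0636, adjusted p = 1.5e-05) and −0.07 in MEC1 (95% interval −0.22 to 0.07, adjusted p = 0.405). The difference between the lines was itself called (adjusted p = 6.71e-06), with each library left out and under every alternative, as were the rises in JVM2 and EHEB.

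Both kinase inhibitors went with lower SLC35D1. In EHEB the level was 39, 40.3 and 43.7 CPM with ibrutinib and 36.5, 42.1 and 38.5 with idelalisib, all below the DMSO libraries. The log2 fold changes there were −0.44 (SE 0.0636, adjusted p = 0.000667) and −0.53 (SE 0.0638, adjusted p = 8.61e-05). MEC1 held 42.8, 38.3 and 44.2 CPM with ibrutinib and 36.7, 39.1 and 38.1 with idelalisib, for changes of −0.23 (SE 0.0668, adjusted p = 0.015) and −0.32 (SE 0.0669, adjusted p = 0.00191). The first was lost without MEC1_38 (adjusted p = 0.0613) or MEC1_185 (0.0575), with library size scaling alone (0.109) and with only the 6 libraries of the comparison (0.0568). In JVM2 the fall with idelalisib, −0.16 (SE 0.0557, adjusted p = 0.0331), was lost without JVM2_85, JVM2_86, JVM2_238 or JVM2_239 (0.101, 0.0921, 0.0603 and 0.164) and under 5 alternatives, and ibrutinib gave −0.10 (95% interval −0.22 to 0.02). The effect differed between lines for ibrutinib (adjusted p = 0.0336) and idelalisib (adjusted p = 0.0142), but the first was lost without EHEB_133, EHEB_134, EHEB_280, EHEB_281, JVM2_86, JVM2_87 or JVM2_232 (0.0863, 0.0708, 0.0563, 0.0606, 0.0519, 0.0818 and 0.0719) and the second without EHEB_133 (0.0526) or JVM2_87 (0.0604).

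UXS1, which turns UDP-glucuronic acid into UDP-xylose (chromosome 2, 106093308 to 106194301, minus strand), rose with fludarabine in the same pair of lines. JVM2 went from 24.8, 29.2 and 33.1 CPM with DMSO to 35.8, 39.5 and 38.6, and EHEB from 16.7, 19.6 and 17.6 to 21.9, 23.8 and 23.2. No treated library overlapped with DMSO. The log2 fold changes were 0.36 (SE 0.0994, adjusted p = 0.0115) and 0.39 (SE 0.0737, adjusted p = 0.00147). In MEC1 the level was 12.4, 11.6 and 12.1 CPM with DMSO and 13.4, 14.9 and 14.2 with fludarabine, a difference of 0.23 (95% interval −0.03 to 0.48, adjusted p = 0.145) that passed the threshold with library size scaling alone, the stricter filter and the joint fit. The effect of fludarabine on UXS1 did not differ detectably between lines (adjusted p = 0.781). With idelalisib UXS1 rose in JVM2 to 40.8, 45.2 and 50.6 CPM, the highest of its 12 groups, by 0.64 (1.56-fold, SE 0.0996, adjusted p = 0.000359). In MEC1 and EHEB idelalisib gave 0.25 (95% interval −0.01 to 0.51) and 0.11 (−0.06 to 0.27). The MEC1 value passed the threshold without MEC1_191 (adjusted p = 0.00731) and with the stricter filter (0.37, adjusted p = 0.0167). Ibrutinib gave values between −0.07 and 0.21, none called, although that in JVM2 passed with library size scaling alone (0.29, adjusted p = 0.0476). The idelalisib effect differed between the lines (adjusted p = 0.0241), though not without EHEB_134, JVM2_85, JVM2_86 or JVM2_240 (0.0557, 0.0907, 0.058 and 0.0742).

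The promoters of SLC35D1 and UXS1, which both rose with fludarabine in JVM2 and EHEB, and of GUSB, which fell with the kinase inhibitors, are shown for comparison. Each runs from 250 bases before to 50 bases from the RefSeq transcript start (GRCh38.p14, gene strand, minus for all 3), at chr1:67054099-67054398, chr2:106194252-106194551 and chr7:65982164-65982463, with the GC box GGGCGG or its reverse complement in capitals:
SLC35D1: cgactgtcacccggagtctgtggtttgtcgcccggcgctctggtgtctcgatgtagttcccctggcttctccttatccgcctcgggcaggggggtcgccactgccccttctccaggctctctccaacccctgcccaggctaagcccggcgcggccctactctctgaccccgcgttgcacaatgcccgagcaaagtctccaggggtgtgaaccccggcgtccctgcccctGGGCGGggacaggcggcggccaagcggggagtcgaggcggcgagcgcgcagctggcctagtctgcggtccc
UXS1: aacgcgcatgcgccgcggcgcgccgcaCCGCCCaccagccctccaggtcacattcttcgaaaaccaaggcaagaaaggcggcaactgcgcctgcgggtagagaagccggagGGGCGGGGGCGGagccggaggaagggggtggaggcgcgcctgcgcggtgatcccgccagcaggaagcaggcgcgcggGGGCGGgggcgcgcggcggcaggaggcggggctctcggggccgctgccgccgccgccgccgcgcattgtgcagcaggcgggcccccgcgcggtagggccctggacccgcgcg
GUSB: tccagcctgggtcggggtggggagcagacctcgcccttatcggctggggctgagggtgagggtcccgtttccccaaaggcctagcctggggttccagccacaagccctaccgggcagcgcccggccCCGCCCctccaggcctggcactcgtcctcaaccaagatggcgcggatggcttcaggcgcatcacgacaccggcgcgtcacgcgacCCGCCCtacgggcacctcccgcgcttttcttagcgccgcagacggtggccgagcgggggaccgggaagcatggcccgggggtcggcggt
The sequences hold 1 GC box in SLC35D1, 4 in UXS1, of which 2 adjoin, and 2 in GUSB. UGT8 has 3, UGDH 2 and UGP2 1. On either strand, GGGCGG occurs in 45% of the 35116 RefSeq promoters of this length. None of the 6 promoters taken holds the E-box CACGTG, which 7.26% of all promoters do. RefSeq lists 3 starts each for UXS1 and UGT8 and 2 for UGP2. For each gene only the start nearest its annotated 5′ end was used, and the other starts were not searched.

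UGT8, the ceramide galactosyltransferase (chromosome 4, 114598770 to 114678225, plus strand), had far higher counts in MEC1 than in JVM2 or EHEB. There fludarabine raised it from 24.8, 27.3 and 27.2 to 36.6, 36 and 33.8 CPM, without overlap, by 0.41 on the log2 scale (1.32-fold, SE 0.0749, adjusted p = 0.00109). The call held with each library left out and was lost in the joint fit of all 36 libraries (0.44, adjusted p = 0.287). With ibrutinib the MEC1 level was 23.1, 23.2 and 23.5 CPM (−0.17, SE 0.0748, adjusted p = 0.0882) and with idelalisib 29.1, 26.8 and 24.9 (0.09, SE 0.0748, adjusted p = 0.303). In JVM2 its counts ranged from 18 to 78 and the highest group was ibrutinib, with 51, 77 and 78 counts against 19, 46 and 41 with DMSO. That difference, 0.98 (SE 0.377, adjusted p = 0.0756), passed the threshold without JVM2_232 (0.0259). In EHEB counts ranged from 0 to 22, with 14 to 22 in the DMSO libraries and 0 to 14 in the others. Low counts in these files step by about 8/3 per read and overstate the number of reads. The fold changes of UGT8 in EHEB were −1.39 (95% interval −3.60 to 0.81), −0.77 (−2.87 to 1.32) and −1.60 (−3.81 to 0.61) for fludarabine, ibrutinib and idelalisib, so that a change was not detectable at this depth, though the joint fit gave adjusted p = 0.0468 for idelalisib. The UGT8 effect differed between lines for fludarabine (adjusted p = 0.0277) and ibrutinib (adjusted p = 0.0211). The former was lost without EHEB_133, EHEB_135, MEC1_37, MEC1_38, MEC1_46, MEC1_47 or MEC1_48 (0.0578, 0.0551, 0.0594, 0.0523, 0.0651, 0.0622 and 0.0545) and the latter without JVM2_85 (0.0524) or JVM2_233 (0.0601). For idelalisib the test gave adjusted p = 0.108, or 0.00481 without EHEB_287 and 0.00406 in DESeq2.

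GUSB, the lysosomal β-glucuronidase (chromosome 7, 65960684 to 65982215, minus strand), fell with both kinase inhibitors in MEC1 and JVM2. In MEC1 the CPM was 81.8, 77.3 and 63.5 with DMSO, 40.8, 39.2 and 51.0 with ibrutinib and 43.7, 42.8 and 45.5 with idelalisib. JVM2 went from 38.4, 40.1 and 40.6 to 34.5, 27.6 and 27.9 with ibrutinib and to 24.4, 23.8 and 24.7 with idelalisib. All treated libraries lay below all DMSO libraries of their line. The log2 fold changes were −0.75 (SE 0.105, adjusted p = 0.000144) and −0.68 (SE 0.105, adjusted p = 0.0002) in MEC1 and −0.42 (SE 0.0726, adjusted p = 0.00144) and −0.71 (SE 0.0729, adjusted p = 1.9e-05) in JVM2. In EHEB the libraries overlapped with DMSO (42.1, 44.2 and 34.0 CPM) for every drug, and the differences of −0.23, −0.22 and −0.24 were not called (adjusted p 0.17, 0.252 and 0.169). With fludarabine GUSB fell in JVM2, to 32.9, 33.9 and 30.1 CPM, by 0.32 on the log2 scale (SE 0.0725, adjusted p = 0.00354), but not with library size scaling alone (−0.13, adjusted p = 0.135). In MEC1 it lay at 68.2, 71.9 and 67.5 CPM with fludarabine (−0.12, 95% interval −0.35 to 0.11). The lines differed in the effect of idelalisib (adjusted p = 0.0102), with every library left out, and for ibrutinib the test gave adjusted p = 0.0779, or 0.042 without MEC1_39 and 0.0372 without MEC1_186. The ibrutinib test also passed the threshold with library size scaling alone (0.0439), in DESeq2 (0.0375) and in the joint fit (0.0143).

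GUSB has copies elsewhere in the genome, and the counting could split its reads among them. The 8 GUSBP pseudogenes with counts took between 14.8% and 55.7% of the sum of GUSB and GUSBP counts. Their summed level was 18.2 ± 1.09 CPM with DMSO, 21.8 ± 5.13 with ibrutinib and 27.1 ± 4.74 with idelalisib in MEC1 (SD, n = 3 each), and their share of the sum was 17.3% to 22.2% with DMSO and 34.1% to 42.9% with idelalisib. In JVM2 it was 33.5% to 38.1% with DMSO and 47.8% to 55.7% with idelalisib. When the pseudogene counts were added to GUSB, an alternative chosen after the data were seen, the falls remained called but were smaller. They were −0.48 (adjusted p = 0.00126) and −0.31 (adjusted p = 0.0139) for ibrutinib and idelalisib in MEC1, and −0.37 (adjusted p = 0.00164) and −0.32 (adjusted p = 0.00198) in JVM2. In EHEB the sum gave −0.12, −0.04 and −0.02 for the 3 drugs. The difference of the idelalisib effect between lines then had adjusted p = 0.102, and that for ibrutinib 0.0266. The DMSO differences of JVM2 and EHEB from MEC1 became −0.56 and −0.63, both still called.

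**Figure D1:**
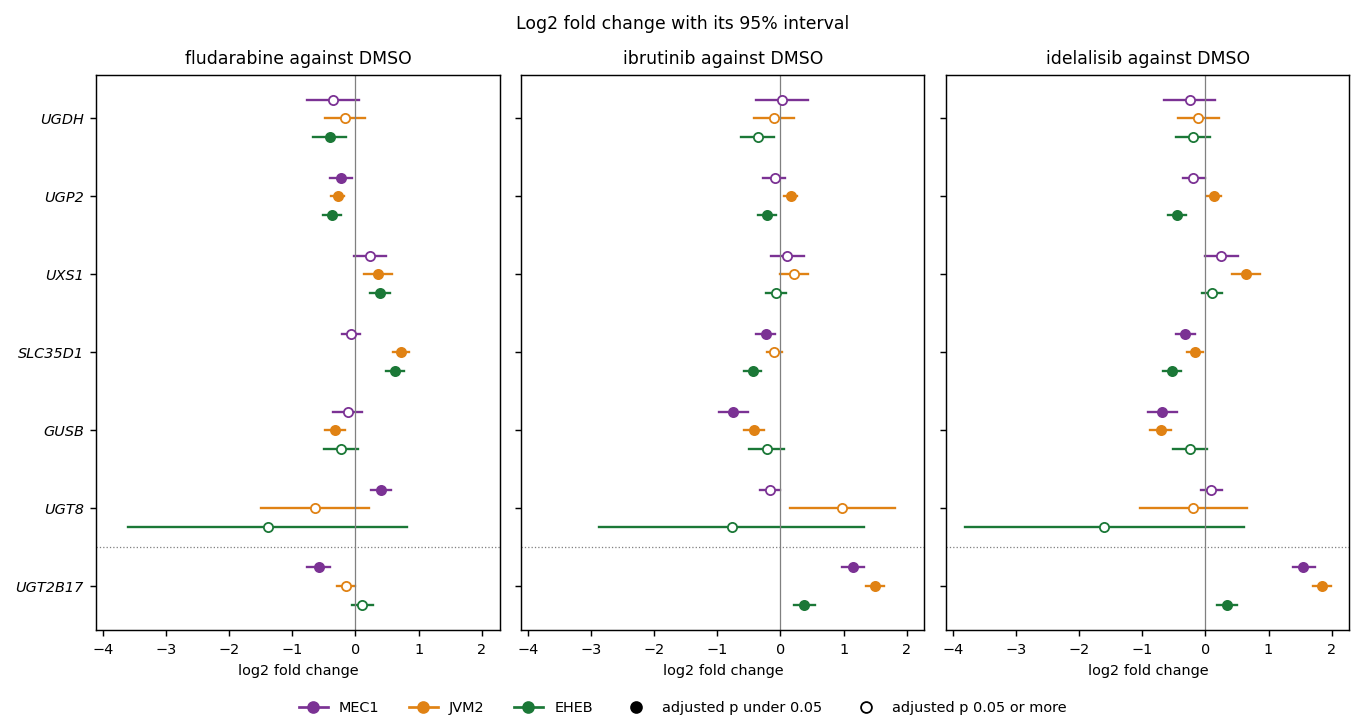
Log2 fold change of the 6 genes and of UGT2B17 against DMSO with its 95% interval, by drug and line, with filled points for adjusted p under 0.05. With fludarabine SLC35D1 and UXS1 lie to the right in JVM2 and EHEB. In MEC1 SLC35D1 is at −0.07 and UXS1 at 0.23, neither called. UGP2 lies to the left in all 3 lines. With the kinase inhibitors GUSB and SLC35D1 lie to the left and UGT2B17 to the right, at 0.34 to 1.85.

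Across the lines, the effect of a drug differed for 3 of the 6 genes with fludarabine (39.1% of all genes tested), 3 with ibrutinib (33.6%) and 4 with idelalisib (45.7%). Set directly against ibrutinib, in libraries of 1 number series, idelalisib went with higher UGT8 in MEC1 (0.26, SE 0.0749, adjusted p = 0.0373), with higher UXS1 (0.44, SE 0.0993, adjusted p = 0.0116) and lower GUSB (−0.29, SE 0.0728, adjusted p = 0.0182) in JVM2, and with lower UGP2 in EHEB (−0.24, SE 0.0645, adjusted p = 0.0277). That is 1 of 6 genes in MEC1, where 15.4% of all genes were called, 2 in JVM2 (18.7%) and 1 in EHEB (15.8%). None of these 4 calls held with every library left out. The UXS1 call was lost without JVM2_232 (adjusted p = 0.0502) or JVM2_240 (0.0563), the GUSB call without JVM2_232 (0.064), and the UGP2 call without EHEB_282 (0.0961), EHEB_286 (0.0907) or EHEB_288 (0.12). The UGT8 call in MEC1 was lost without MEC1_184, MEC1_185, MEC1_186, MEC1_190 or MEC1_191 (0.153, 0.0538, 0.106, 0.198 and 0.0672). With pseudogene counts added, GUSB in JVM2 gave 0.04 (adjusted p = 0.698). UGT8 in JVM2 was lower with idelalisib in all libraries, at 37, 28 and 32 counts against 51, 77 and 78, with −1.17 (SE 0.379, adjusted p = 0.0549), and passed the threshold without JVM2_232 (0.0245). For UGDH and SLC35D1 no difference between the kinase inhibitors was detectable in any line, except for SLC35D1 in MEC1 with library size scaling alone (−0.26, adjusted p = 0.0281), with 95% intervals of −0.23 to 0.06, −0.19 to 0.06 and −0.22 to 0.06 for SLC35D1 in MEC1, JVM2 and EHEB.

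UGT2B17 stands at the point of use of UDP-glucuronic acid (chromosome 4, 68537173 to 68576413, minus strand). With ibrutinib and idelalisib it rose by 1.15 and 1.55 in MEC1, 1.5 and 1.85 in JVM2 and 0.38 and 0.34 in EHEB on the log2 scale. None of UGDH, SLC35D1, GUSB or UGT8 was called higher in any of these 6 comparisons. UGP2 was called higher in JVM2 with both inhibitors (0.16 and 0.13), and UXS1 in JVM2 with idelalisib (0.64). The level of UGT2B17 per exon length relative to each of 5 genes was therefore taken within each library, where the scaling between libraries drops out. UGT8 was left out because it had counts of 0. Since the changes of UGT2B17 and of the members were already known, the tests of the ratio restate them in each library and are no independent support. Relative to SLC35D1 it was 0.535, 0.606 and 0.581 in the JVM2 libraries with DMSO, 1.79, 1.71 and 1.69 with ibrutinib and 2.27, 2.49 and 2.21 with idelalisib. In MEC1 the ratio was 0.794, 0.729 and 0.883 with DMSO and 3.04, 2.69 and 3.03 with idelalisib, and in EHEB 2.71, 2.66 and 2.67 with DMSO and 5.55, 4.80 and 4.34 with idelalisib. Relative to UGDH it was 0.312 ± 0.014 with DMSO and 1.13 ± 0.339 with idelalisib in MEC1, 0.428 ± 0.021 and 1.69 ± 0.195 in JVM2, and 1.45 ± 0.107 and 2.1 ± 0.302 in EHEB (SD, n = 3 each).

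Over the 3 lines, treatment labels were permuted within lines in an exact two-sided test of the mean change of the log2 ratio, with 8000 arrangements and a smallest possible p of 0.00025. With ibrutinib the ratio of UGT2B17 rose by 1.15 against UGDH, 1.06 against UGP2, 0.92 against UXS1, 1.27 against SLC35D1 and 1.47 against GUSB, each at that smallest p in the exact permutation test (0.000341 after Benjamini-Hochberg adjustment over the 15 tests). With idelalisib the rises were 1.44, 1.42, 0.91, 1.58 and 1.79 in the same order, again at the smallest p except for UXS1 (p = 0.0005, adjusted 0.000625, exact permutation test). GUSB was counted here without its pseudogenes. Adding their counts made the falls of GUSB with the kinase inhibitors in MEC1 and JVM2 smaller, and the ratio was not taken with them. In EHEB the changes were smaller, 0.23 to 0.86 for idelalisib and 0.44 to 0.82 for ibrutinib, and for UXS1 with idelalisib the EHEB libraries overlapped with DMSO. With fludarabine the ratio fell against UXS1 by 0.54 and against SLC35D1 by 0.64, in all 3 lines and without overlap (p = 0.00025, exact permutation test). Against UGDH, UGP2 and GUSB the mean change was 0.12, 0.08 and 0.01 (p = 0.339, 0.425 and 0.926, exact permutation test). Here the lines moved in opposite directions, with MEC1 at −0.20, −0.36 and −0.48, JVM2 at 0.03, 0.13 and 0.17 and EHEB at 0.52, 0.48 and 0.34. Fludarabine and DMSO libraries did not overlap in 1 line for UGDH, 2 for UGP2 and all 3 for GUSB. The mean over lines therefore does not show the changes within lines. UGT2B17 itself fell with fludarabine in MEC1 (−0.58, adjusted p = 0.00015) and gave −0.15 in JVM2 (adjusted p = 0.0677, or 0.0486 without JVM2_87) and 0.11 in EHEB (adjusted p = 0.28, or 0.22 with adjusted p = 0.0468 by library size scaling alone, which gave 0.04 in JVM2). For UGT2B17 with fludarabine, the authors reported induction in MEC1, JVM2 and EHEB by RT-qPCR. Why these counts gave another direction in MEC1 was not tested. No deposited value bears on the amount of the sugars or on enzyme activity.

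**Figure D2:**
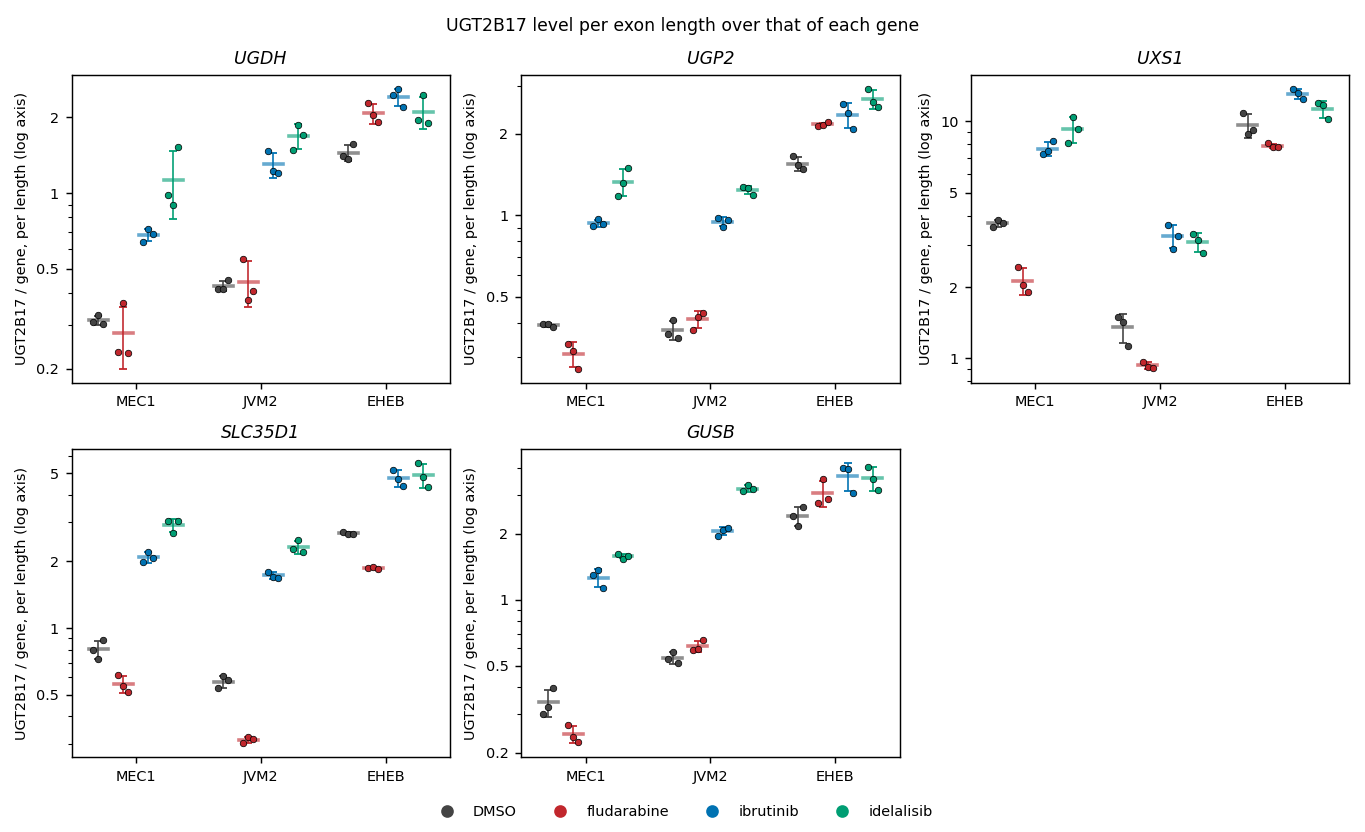
Level of UGT2B17 per exon length divided by that of 5 genes in the same library (log axes), with lines at the group mean and error bars of 1 SD over 3 libraries. GUSB is counted without its pseudogenes. Relative to SLC35D1 the ratio in JVM2 lay at 0.535 to 0.606 with DMSO, 0.302 to 0.323 with fludarabine and 2.21 to 2.49 with idelalisib.

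For each gene, the genes whose pattern was most like it were sought by Pearson's r of log2 CPM over the 36 libraries after each line's mean was subtracted. The libraries share groups, number series and depth, so r is a description. Of 11926 genes compared, those most like SLC35D1 were FDXR, the ferredoxin reductase (r = 0.949), E2F7, a repressor of cell-cycle genes (0.949), and RAP2B, a small GTPase (0.942). GUSB was most like YIF1B (0.915), CRAT, the carnitine acetyltransferase (0.912), and the kinase MARK4 (0.902). UGP2 came close to NUDT21, a subunit of the 3′ end processing machinery (0.846), XRCC5, the Ku80 subunit (0.841), and DTWD2 (0.837). The values for UXS1 were lower, with the kinesin KIF5C (0.759), the lysosomal membrane protein LAMP1 (0.745) and TMPPE (0.734), and those for UGDH lowest, with TRIM34 (0.618), the transcription factor GABPA (0.607) and the RNA demethylase FTO (0.602). UGT8, with its low counts in JVM2 and EHEB, was most like DMC1 (0.78), SLC19A1 (0.709) and TFR2 (0.672).

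Genes of hexose phosphates and UDP-sugars around UGP2, a list that also holds UAP1 and PGM3 of the path to UDP-N-acetylglucosamine and NUDT14, which breaks down UDP-glucose, were called lower more often than higher with all 3 drugs. Of 13 listed, 12 were tested in 3 lines, 36 tests per drug. With idelalisib 22 were called lower and 1 higher, 61.1% and 2.78%, where 22.7% and 21.4% of all tests over the 3 lines were. With ibrutinib 13 were lower and 1 higher (36.1% and 2.78%, against 16.7% and 15.5% of all tests), and with fludarabine 14 were lower and 6 higher (38.9% and 16.7%, against 21.7% and 21.2%). The median log2 fold change was −0.49, −0.17 and −0.22 for idelalisib, ibrutinib and fludarabine. HK2, the inducible hexokinase, fell in 8 of 9 comparisons, by 0.82 to 2.27 on the log2 scale, and gave −0.27 with ibrutinib in JVM2 (adjusted p = 0.467). PGM1, the phosphoglucomutase that yields glucose-1-phosphate for UGP2, fell in the same number, with −1.5 in JVM2 and −1.08 in EHEB for fludarabine, and so did the glucose-6-phosphate isomerase GPI, with −1.33 in JVM2 for fludarabine. UAP1, which makes UDP-N-acetylglucosamine, fell in 7 and rose with fludarabine in EHEB (0.32, adjusted p = 0.0223).

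Other genes that use UDP-glucose or handle its products were called in both directions, with 12 lower and 8 higher of 35 tests for fludarabine (34.3% and 22.9%, against 21.7% and 21.2% of all tests), 10 and 7 for ibrutinib (28.6% and 20%, against 16.7% and 15.5%) and 13 and 11 for idelalisib (37.1% and 31.4%, against 22.7% and 21.4%). With library size scaling alone the 35 lower and 26 higher calls over the 3 drugs turned to 27 and 38. The muscle-type glycogen synthase GYS1 fell in 8 of 9 comparisons, from −0.25 with fludarabine to −1.15 with idelalisib, both in MEC1, and gave 0.13 with ibrutinib in JVM2 (adjusted p = 0.187). The glycogen branching enzyme GBE1 fell in MEC1 with each drug (−1.47, −0.45 and −0.82) and rose in JVM2 with ibrutinib and idelalisib (0.44 and 0.51). UGCG, the glucosylceramide synthase, fell in MEC1 with each drug, by 1.04 with ibrutinib.

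Other nucleotide sugar transporters were called higher more often than lower with idelalisib. Of 13 tested genes (39 tests per drug), 11 tests were called higher and 5 lower (28.2% and 12.8%, against 21.4% and 22.7% of all tests), 5 and 4 with ibrutinib and 8 and 5 with fludarabine. With library size scaling alone the 24 higher and 14 lower calls over the 3 drugs became 39 and 9. SLC35B3, a transporter of the sulphate donor PAPS, rose with both kinase inhibitors in MEC1 (0.41 and 0.51) and JVM2 (0.38 and 0.52). SLC35A1, the CMP-sialic acid transporter, rose with idelalisib in MEC1 (0.75) and EHEB (0.27) and with fludarabine in JVM2 (0.54). SLC35B4, a transporter of UDP-xylose and UDP-N-acetylglucosamine, rose with the kinase inhibitors in MEC1 (0.38 each) and fell there with fludarabine (−0.25). SLC35A4 rose in JVM2 with each drug (0.44, 0.51 and 0.47) and fell in MEC1 with idelalisib (−0.53).

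Glycosaminoglycan chains take up both UDP-glucuronic acid and UDP-xylose. Of their polymerising enzymes, 24 of 26 listed genes were tested, and the calls leaned to lower with ibrutinib (22 lower and 11 higher of 64 tests, 34.4% and 17.2%, against 16.7% and 15.5% of all tests) and idelalisib (24 and 11, 37.5% and 17.2%, against 22.7% and 21.4%). With fludarabine 13 were lower and 15 higher (20.3% and 23.4%, against 21.7% and 21.2%). With library size scaling alone the 59 lower and 37 higher calls over the 3 drugs became 52 and 49. EXT2, a subunit of the heparan sulphate polymerase, fell in 8 of 9 comparisons, by up to 0.64 in JVM2 with idelalisib. CHSY1, a chondroitin synthase, fell in 7, most with ibrutinib in MEC1 (−0.98), and CSGALNACT2, which starts chondroitin chains, fell in MEC1 and JVM2 with each drug and rose in EHEB with fludarabine (0.21) and idelalisib (0.31). B3GALT6, which adds a galactose of the linker, rose in 7, by 0.82 with idelalisib in JVM2. Of 7 genes that act on or beside xylose, FAM20B, the kinase of the linker xylose, fell in 7 comparisons (−0.21 to −0.37), and POGLUT1, an O-glucosyltransferase, rose in 4, by 1.41 with ibrutinib in MEC1. KDELC1 and KDELC2, also O-glucosyltransferases, fell in 4 and 5 comparisons, and KDELC1 rose in EHEB with fludarabine (0.58). Over this list 6 tests were lower and 5 higher of 19 with fludarabine (31.6% and 26.3%, against 21.7% and 21.2% of all tests), 7 and 1 with ibrutinib (36.8% and 5.26%, against 16.7% and 15.5%) and 8 and 2 with idelalisib, of which the lower ones made 42.1% (against 22.7% of all tests, and 21.4% higher). With library size scaling alone the 21 lower and 8 higher calls became 15 and 11.

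Other lysosomal enzymes of glycosaminoglycan breakdown moved in both directions. All 17 were tested, and with fludarabine 22 of 51 tests were called higher and 8 lower (43.1% and 15.7%, against 21.2% and 21.7% of all tests, median log2 fold change 0.20). With ibrutinib 11 were higher and 12 lower (21.6% and 23.5%, against 15.5% and 16.7%), and with idelalisib 15 and 12 (29.4% and 23.5%, against 21.4% and 22.7%). Over the 3 drugs, 48 higher and 32 lower calls became 59 and 21 with library size scaling alone. HGSNAT, the heparan-α-glucosaminide acetyltransferase, rose in 8 of 9 comparisons, including 0.91 with ibrutinib in MEC1, where GUSB fell. GALNS, the N-acetylgalactosamine-6-sulphatase, rose in 7, by 1.18 with ibrutinib in MEC1, and CTSA, the protective protein of the lysosomal neuraminidase and β-galactosidase, rose in 6, by 0.92 with fludarabine in MEC1.

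Of 20 other UGT enzymes listed, which draw on the same UDP-glucuronic acid or related sugars, 8 were tested in at least 1 line, and 1, 5 and 7 passed the filter in MEC1, JVM2 and EHEB. Of 13 tests per drug, 4 were called higher with each drug (30.8%, against 21.2%, 15.5% and 21.4% of all tests for fludarabine, ibrutinib and idelalisib) and 1 lower, with idelalisib (7.69%, against 22.7%). These shares rest on few genes and are no result about the enzymes as a set. The higher calls were UGT2B15 in each line plus UGT1A7 (ibrutinib) or UGT1A6 (idelalisib) in EHEB, and for fludarabine all lay in EHEB. UGT1A7, counted for fludarabine and ibrutinib, passed the filter through treated libraries alone. UGT2B15, a near relative of UGT2B17 with which it may share reads, rose with both kinase inhibitors in each line, by 1.34 and 1.69 in MEC1, 1.13 and 1.34 in JVM2 and 0.32 and 0.41 in EHEB. Its level was 3.41 ± 1.55 CPM with DMSO in MEC1, 4.47 ± 0.359 in JVM2 and 15.3 ± 0.87 in EHEB (SD, n = 3 each). Fludarabine in EHEB raised UGT1A6 from 3.94 ± 0.155 to 8.63 ± 1.96 CPM (log2 fold change 1.16, adjusted p = 0.000633), UGT2A3 from 3.87 ± 0.445 to 7.63 ± 0.973 (1.01, adjusted p = 0.00277) and UGT2B7 from 3.23 ± 0.194 to 5.73 ± 0.424 (0.86, adjusted p = 0.00141). UGT1A6 also rose with idelalisib in EHEB (1.00, adjusted p = 0.00219), and UGT2A3 fell (−0.97, adjusted p = 0.00535). UGT1A1, UGT1A8 and UGT1A10 had at most 75 counts in any library of the lines where they were tested, and none was called. UGT1A7 was called higher in EHEB with fludarabine and ibrutinib from DMSO libraries with 0 counts, and is given no fold. The UGT1A genes share exons, so the counting could divide their reads.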

How the data were processed

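Ribosomal RNA-depleted total RNA was sequenced in 36 libraries of 3 cell lines. Per the submitters' notes the authors used Trimmomatic, HISAT2 2.1, StringTie 1.3.4 and edgeR 3.22.5 with GRCh38. The sources used here do not give the annotation release or the strand setting. The values deposited by the authors are estimated counts per gene, written as whole numbers, whose low values step by about 8/3, so that they overstate the number of reads. A row with a blank symbol (0.00384% of counts) was left out.

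The 12 libraries of a line were fitted together in edgeR 4.0.16 (R 4.3.3) with TMM scaling, filterByExpr (minimum count 10, minimum total 15), the quasi-likelihood F-test and Benjamini-Hochberg adjustment over all genes tested. DMSO-treated lines were compared over their 9 libraries, and the difference of a drug effect between lines was tested by both interaction terms together over 18 libraries. Lengths and positions are from GENCODE (GRCh38), and promoters from RefSeq (GRCh38.p14), where all 6 genes matched. UGT2B17 had no entry. Alternatives were scaling by library size alone, DESeq2 1.42.0, limma-voom (limma 3.58.1), no filter, a stricter filter (mean CPM of at least 5), the 6 libraries of a comparison alone, a joint fit of 36 libraries and leaving out each library. Counts divided by 8/3 and GUSBP counts added to GUSB were chosen after seeing the data. The scripts were tested on simulated data. Ratios and figures used scipy 1.17.1, matplotlib 3.10.9, numpy 2.4.6 and pandas 2.3.3 in Python 3.11.15.

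Members and gene lists were chosen with earlier results of these data known. Of each list, at most 4 genes are named, those called most often in 1 direction over the 9 comparisons with DMSO (at least 3), of the UGT enzymes those with a mean of at least 10 counts in a line, and for each member the 3 most like genes. Some genes that this rule names are not reported here. Replicate libraries differed by more than sampling noise, with a chi-square of 27.2 to 53.6 per degree of freedom over 36 pairs. It was taken on the deposited counts, which step by about 8/3 per read, so sampling of reads alone would give about 8/3 and not 1.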

Additional observations from a re-analysis of the deposited data

Results flagged for a closer look

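Each result here is a drug effect that differed between the 3 lines by the interaction test in edgeR (Benjamini-Hochberg adjusted p). In all of them exposure time changes with the line, and their parts cannot be told apart. For fludarabine these were SLC35D1 (adjusted p = 6.71e-06), which rose in JVM2 and EHEB and gave −0.07 in MEC1, UGT2B17 (0.000648), which fell in MEC1, UGT8 (0.0277), which rose in MEC1, and UGP2 (0.0468), which fell in all 3 lines by differing amounts. For ibrutinib they were UGT2B17 (1.02e-06), which rose least in EHEB, UGP2 (0.00564), which rose in JVM2 and fell in EHEB, UGT8 (0.0211), whose counts were low in JVM2 and EHEB, and SLC35D1 (0.0336), which fell most in EHEB. For idelalisib they were UGT2B17 (5.31e-08), UGP2 (0.000311), which rose in JVM2 and fell in EHEB, GUSB (0.0102), which fell in MEC1 and JVM2, SLC35D1 (0.0142) and UXS1 (0.0241), which rose in JVM2. Of the 10 calls among the 6 genes, SLC35D1 with fludarabine and UGP2 with ibrutinib and with idelalisib held with each library left out and under every alternative run.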

How the results depend on the processing

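No paired analysis was possible because the library numbers in the labels are not shared between groups. With a library left out, 887 values of single genes kept direction and side of the threshold, 95 lost the call, 11 gained one and 15 turned direction. Under the other alternatives the numbers were 992, 43, 25 and 19.

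Members called with each library left out ranged from 1 to 2 for MEC1 fludarabine, MEC1, JVM2 and EHEB ibrutinib and JVM2 idelalisib against ibrutinib, from 2 to 3 for JVM2 idelalisib (4 with all libraries), from 0 to 1 for idelalisib against ibrutinib in MEC1 and EHEB, and from 1 to 3 for the fludarabine effect across lines. Library size scaling alone gave 2 for JVM2 fludarabine, 1 for MEC1 and EHEB ibrutinib and 2 for MEC1 idelalisib against ibrutinib. Without the filter there was 1 for JVM2 and EHEB ibrutinib, 2 for JVM2 idelalisib and 0 for idelalisib against ibrutinib in MEC1 and EHEB. With only the libraries compared there was 1 for MEC1 and EHEB ibrutinib and 0 for idelalisib against ibrutinib in MEC1 and EHEB. The joint fit gave 1 for JVM2 ibrutinib, 2 for JVM2 idelalisib, 0 for MEC1 idelalisib against ibrutinib and 2 for DMSO-treated EHEB against JVM2. The stricter filter gave 4 for MEC1 idelalisib, counts divided by 8/3 gave 1 for MEC1 fludarabine, and GUSBP counts added gave 1 for JVM2 idelalisib against ibrutinib. The cause was not tested.

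Of the gene lists, library size scaling alone gave 39 higher and 9 lower calls for nucleotide sugar transport (24 and 14 with TMM) and 21 lower for lysosomal cleavage (32), and DESeq2 gave 2 lower for UGT enzymes (1).

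Values that turned direction included 2 calls, the UGP2 fall in MEC1 with fludarabine and the lower GUSB of JVM2 with idelalisib against ibrutinib. Library size scaling alone gave, with fludarabine, 0.02 for UGP2, 0.18 for SLC35D1 and 0.13 for GUSB in MEC1, and 0.03 for UGDH and 0.04 for UGT2B17 in JVM2. It gave 0.03 for UXS1 in EHEB with ibrutinib, −0.0017 for UGT8 in MEC1 with idelalisib, and for idelalisib against ibrutinib −0.03 for UXS1 and −0.11 for GUSB in MEC1 and 0.01 for UGDH in JVM2. The stricter filter gave 0.02 for SLC35D1 in MEC1 with fludarabine and, for idelalisib against ibrutinib, 0.01 for UGDH in JVM2 and 0.0045 for GUSB in EHEB. UGDH in MEC1 with ibrutinib was −0.02 without the filter and −0.02 in the joint fit, and DESeq2 gave 0.01 for UGP2 in DMSO-treated EHEB against MEC1. With GUSBP counts added, GUSB was 0.04 in JVM2, where it had been called lower, and 0.02 in EHEB for idelalisib against ibrutinib, and −0.08 for DMSO-treated EHEB against JVM2.

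With each library left out, the range was −0.03 to 0.06 for UGDH in MEC1 with ibrutinib, −0.11 to 0.0018 for UXS1 in EHEB with ibrutinib and −0.42 to 0.02 for UGT8 in JVM2 with idelalisib. For idelalisib against ibrutinib it was −0.01 to 0.18 for GUSB in MEC1, −0.13 to 0.04 for UGDH in JVM2, −0.08 to 0.11 for GUSB and −0.09 to 0.04 for UGT2B17 in EHEB. For DMSO-treated lines it was −0.04 to 0.02 for UGP2 in EHEB against MEC1 and −0.04 to 0.15 for GUSB in EHEB against JVM2. The log2 ratio of UGT2B17 to GUSB with fludarabine ranged from −0.03 to 0.05, and adding 0.5 to each count changed no ratio's direction or call.

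The other splits of calls that library size scaling moved by over 10 percentage points were the higher shares for ibrutinib in JVM2 (49.1% to 62.2%) and EHEB (43.1% to 65.4%), idelalisib in JVM2 (48.8% to 59.5%) and EHEB (45.3% to 59.5%), and MEC1 idelalisib against ibrutinib (39.1% to 11.3%), whose median moved by −0.17.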
